A study of Mus musculus with 24 samples.

Results

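Cell division in quadriceps muscle was followed through 40 genes of S phase and mitosis, taken by name from the 24062 genes listed in each of 2 count tables. All 40 were found under their symbols, and all 40 passed the filter on low counts in every fit. By role they were 9 genes of origin licensing (Mcm2 to Mcm7, Cdc6, Cdt1 and Gmnn), 4 of DNA synthesis and nucleotide supply (Pcna, Rrm1, Rrm2 and Tyms), 3 drivers of the G1/S step (Ccne1, Ccne2 and E2f1), and 7 mitotic cyclins, kinases and their transcription factor (Ccna2, Ccnb1, Ccnb2, Cdk1, Plk1, Aurka and Foxm1). The others were 4 genes of the spindle checkpoint and the anaphase promoting complex (Bub1, Bub1b, Cdc20 and Ube2c), 2 of the chromosomal passenger complex (Aurkb and Birc5), 6 spindle motors and bundlers (Tpx2, Kif11, Kif20a, Kif23, Nusap1 and Prc1), and 5 genes of centromere and chromosome structure (Cenpa, Cenpe, Cenpf, Top2a and Mki67).

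The mice, all on a C57BL/6 background, were WT, delEx44 or corrected. A delEx44 mouse carries a deletion of exon 44 of Dmd, the dystrophin gene, and serves as a model of Duchenne muscular dystrophy. The corrected group had the same deletion and received AAV9 vectors for a guide RNA and for SpCas9 into the peritoneum on postnatal day 4. In the 4-week and 8-week groups each vector was given at 8e13 vg/kg with a self-complementary guide vector, and in the 18-month group a single-stranded guide vector was given at 2.5e14 vg/kg with Cas9 at 5e13 vg/kg. In this model living muscle is edited, and its fibres need not all take up both vectors. Each genotype had 3 sedentary libraries at 4 weeks, 2 at 8 weeks after 1 month of downhill running (a decline of 15 degrees at 12 m/min, every other day) and 3 sedentary libraries at 18 months. No 8-week sedentary group was analysed here, so running cannot be told apart from the 4 weeks of added age, and in corrected mice vector dose cannot be told apart from age.

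Dividing cells copy their DNA in S phase and separate the copies in mitosis, and most of the genes followed here are transcribed in pulses at those phases, under E2F factors before S phase and under the DREAM, B-MYB and FOXM1 complexes before mitosis. Muscle fibres themselves do not divide. In a dystrophic muscle the cells that can divide include satellite cells and myoblasts that repair fibres, macrophages that enter the damaged tissue, and fibroblasts, so a bulk library sums over all of them.

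The promoters of 4 members are shown as examples of genes that moved differently. Cdk1 and Mcm6 were called higher in delEx44 muscle at 4 weeks, and Aurka and Rrm1 were called lower in delEx44 muscle at 18 months. Whether promoter letters go with the direction of change was not tested. Each stretch holds the 150 bases before the RefSeq start (GRCm38.p6), 5′ to 3′ on the strand of the gene. Capitals mark matches on either strand to the E2F letters TTTCCCGC, TTTGGCGC, TTTCGCGC and TTTGCCGC, to the CCAAT box CCAAT, and to the letters TTTGAA and TTCGAA of the cell cycle homology region (CHR), through which DREAM and B-MYB complexes are known to bind. In Mcm6 an E2F match on each strand overlaps in the first run of capitals.
Cdk1, chr10:69352913-69353062 (minus strand): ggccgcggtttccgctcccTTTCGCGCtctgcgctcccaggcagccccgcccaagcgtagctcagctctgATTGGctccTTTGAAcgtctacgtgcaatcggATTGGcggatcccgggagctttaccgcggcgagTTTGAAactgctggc
Mcm6, chr1:128359706-128359855 (minus strand): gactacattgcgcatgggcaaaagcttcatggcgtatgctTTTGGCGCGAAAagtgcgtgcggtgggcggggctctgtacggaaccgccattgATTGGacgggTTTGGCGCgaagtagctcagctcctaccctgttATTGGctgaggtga
Aurka, chr2:172370571-172370720 (minus strand): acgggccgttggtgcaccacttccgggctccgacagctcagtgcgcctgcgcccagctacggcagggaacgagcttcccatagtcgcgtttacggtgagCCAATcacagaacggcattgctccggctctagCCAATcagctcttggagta
Rrm1, chr7:102441545-102441694 (plus strand): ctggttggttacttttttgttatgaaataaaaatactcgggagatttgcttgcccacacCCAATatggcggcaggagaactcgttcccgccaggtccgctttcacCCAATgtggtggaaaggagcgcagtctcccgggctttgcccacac
In these stretches Cdk1 has 1 E2F match, 2 CCAAT boxes and 2 CHR matches, Mcm6 has 3 E2F matches and 2 CCAAT boxes, and Aurka and Rrm1 have 2 CCAAT boxes each. One CHR match of Aurka begins at base 33 after the start, outside the stretch. In windows from 250 bases before to 50 after the start, RefSeq gave 34 windows for 32 of the 40 members; Ccne2, Tpx2, Ccna2, Kif20a, Aurkb, Mcm4, Gmnn and Foxm1 had no entry. A CHR match was in 18 of 34 member windows (52.9%) against 19.2% of all 32851 windows, a CCAAT box in 27 (79.4%) against 37.4%, and an E2F match in 7 (20.6%) against 2.26%. All 18 windows with a CHR match also held a CCAAT box, a pair present in 7.52% of all windows. Other members differ from the 4 shown. Rrm2, Pcna, Tyms and E2f1, called higher in delEx44 muscle at 18 months, had 0 E2F and 0 CHR matches in their windows. Mcm2, called lower there, had 1 CHR match.

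The libraries held 30.6 to 38.1 M counts assigned to genes in the first table and 23.1 to 31.3 M counts at 18 months. Dmd itself averaged 217 ± 19.8 CPM (SD, n = 3) in WT, 39.7 ± 3.14 CPM in delEx44 and 161 ± 9.39 CPM in corrected muscle at 4 weeks, 154 ± 8.29 CPM, 41.3 ± 0.813 CPM and 92.1 ± 4.76 CPM after running (n = 2), and 371 ± 47.8 CPM, 85.7 ± 1.31 CPM and 235 ± 60.3 CPM at 18 months (n = 3), where CPM is the usual scaled count, computed here with library sizes scaled by TMM within each table. The order WT, corrected, delEx44 held at each stage. The 8 muscle fibre markers summed to 57576 to 204504 CPM over the 24 libraries, so fibre markers were present in every library. The 4-week WT replicate 3 stood apart: its markers of neutrophils and marrow granulocytes summed to 244 CPM against 0.378 and 0.903 CPM in the other WT libraries, its red cell precursor markers to 60.1 against 4.25 and 7.37 CPM, and its cartilage and tendon markers to 466 against 172 and 174 CPM. Its 40 cell cycle genes summed to 440 CPM against 239 and 347 CPM. All 6 run libraries had granulocyte markers of 63.8 to 208 CPM, and Hba-a1 and Hbb-bt, which define the red cell list, were listed at 0 in all 24 libraries. In comparisons with the 4-week WT group the count of the 40 genes called is also given without WT replicate 3.

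**Figure D1:**
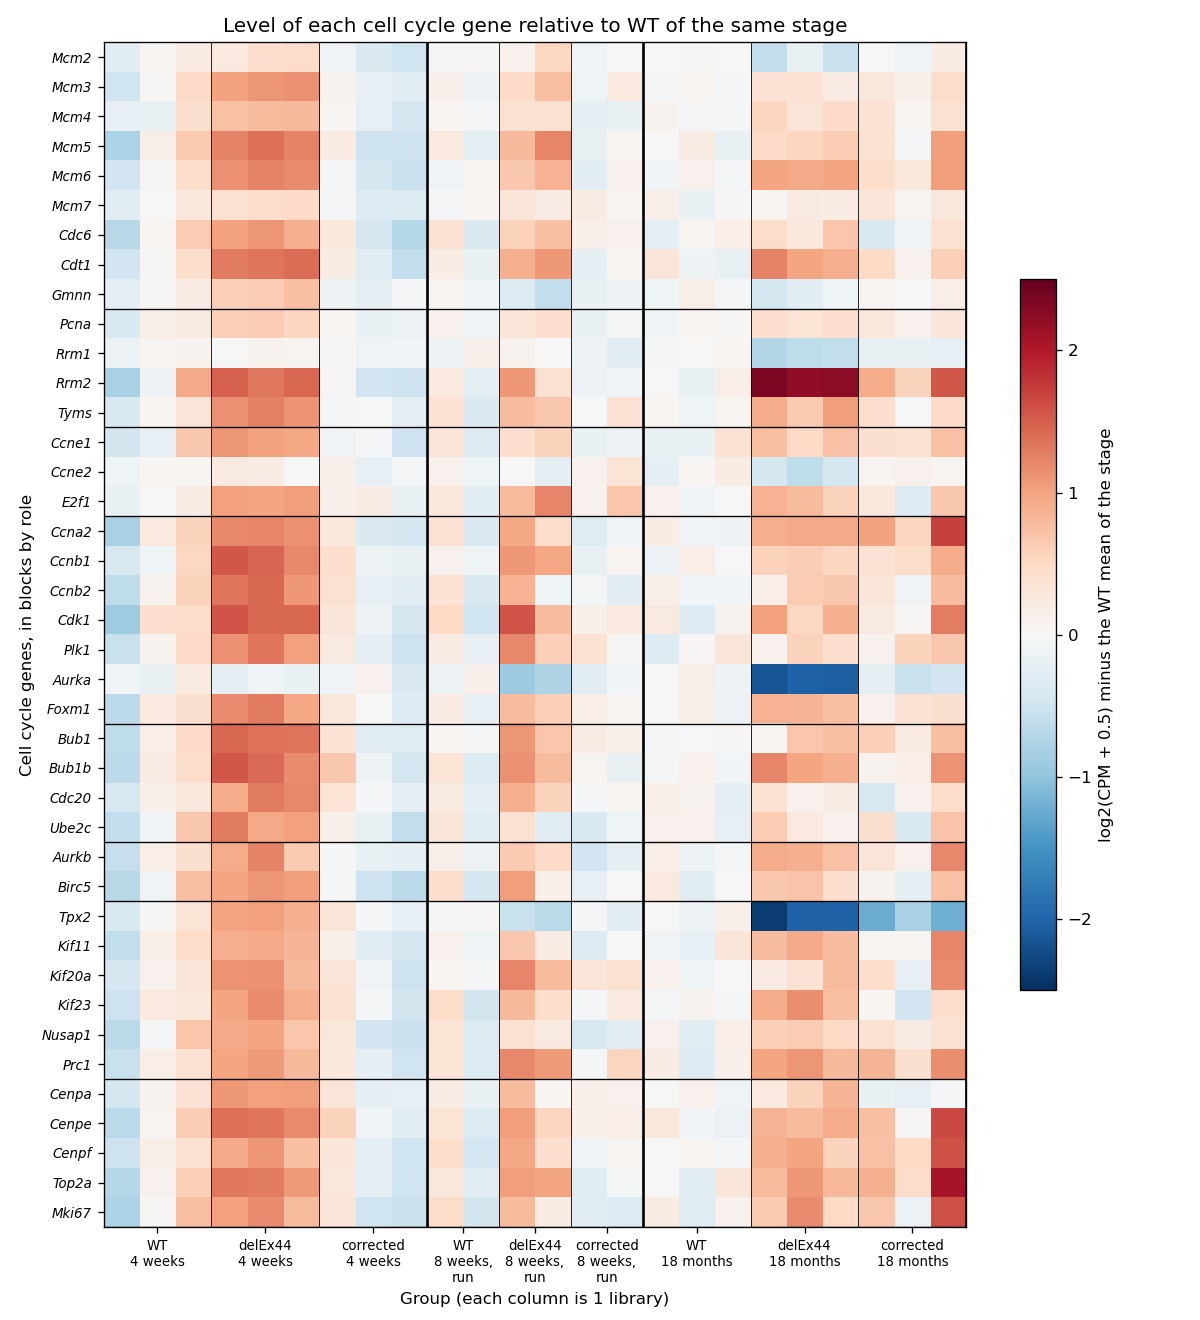
Level of each of the 40 cell cycle genes (rows, in blocks by role) in each of the 24 libraries (columns, by group), as log2(CPM + 0.5) minus the mean of the WT libraries of the same stage; red is higher and blue lower than WT. Most rows are red in delEx44 muscle at 4 weeks, and Aurka and Tpx2 are the darkest blue rows at 18 months.

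The first comparison asked how the loss of exon 44 altered these genes in young muscle. At 4 weeks 34 of the 40 genes were higher in delEx44 than in WT muscle and 0 were lower, where 25.2% of the 15013 genes tested were called higher and 25% lower. The libraries did not overlap, with delEx44 higher, in 36 of the 40 genes and in 29.9% of all genes; without WT replicate 3 this held for 37 of the 40 and for 34.4% of all genes. The median log2 fold change over the 40 genes was 1.08, against -0.00394 over all genes tested. All 9 licensing genes rose, as did all 4 genes of the checkpoint and anaphase promoting complex, 3 of 4 genes of DNA synthesis, 6 of 7 mitotic cyclins and kinases, 5 of 6 spindle genes, 4 of 5 genes of chromosome structure, 2 of 3 G1/S drivers, and Aurkb of the passenger complex. The 6 genes that did not pass were Birc5, Nusap1, Mki67, Aurka, Ccne2 and Rrm1.

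Ccnb1, which encodes the cyclin B1 that activates Cdk1 at entry into mitosis, had the smallest p. The libraries held 1.45, 1.88 and 3.15 CPM of Ccnb1 in WT, 7.02, 6.52 and 5.44 CPM in delEx44 and 2.94, 1.87 and 1.78 CPM in corrected muscle. Every delEx44 library lay above every WT library (log2 fold change 1.54 ± 0.26 SE, adjusted p = 3.26e-04). For Tyms the WT libraries read 2.3, 3.29 and 4.08 CPM, the delEx44 libraries 7.59, 8.17 and 7.4 CPM and the corrected libraries 3.08, 3.18 and 2.64 CPM. Tyms makes the thymidylate used in DNA, and its delEx44 libraries again lay above all WT libraries (log2 fold change 1.26 ± 0.22 SE, adjusted p = 4.04e-04). Levels of Tpx2 were 7.15, 9.71 and 12.1 CPM in WT, 19.2, 19.8 and 18 CPM in delEx44 and 11.9, 9.18 and 8.08 CPM in corrected muscle. Tpx2, a spindle assembly factor that binds and activates the Aurora A kinase, rose without overlap between delEx44 and WT libraries (log2 fold change 0.98 ± 0.17 SE, adjusted p = 4.07e-04).

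The replication genes rose by unequal amounts. Mcm6 stood at 8.72, 12.6 and 16.9 CPM in WT, 27.6, 29.5 and 28.5 CPM in delEx44 and 11.8, 9.0 and 8.31 CPM in corrected muscle. Mcm6 is 1 subunit of the MCM helicase that is loaded at origins, and it more than doubled in level with no overlap between WT and delEx44 (log2 fold change 1.16 ± 0.20 SE, adjusted p = 4.64e-04). The libraries held 18.5, 27 and 28.3 CPM of Pcna in WT, 36.9, 37.7 and 35.4 CPM in delEx44 and 25.2, 21.6 and 21.7 CPM in corrected muscle. Pcna, the sliding clamp of the DNA polymerases, rose less (log2 fold change 0.57 ± 0.13 SE, adjusted p = 0.00276). Over the 6 MCM subunits the log2 fold changes ran from 0.38 for Mcm2 to 1.22 for Mcm5. The largest value among licensing genes was that of Cdt1 (log2 1.5), the loading factor of the helicase, and that of its inhibitor Gmnn was 0.71.

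Top2a, the topoisomerase that disentangles sister DNA, also rose. For Top2a the WT libraries read 11.4, 20.5 and 28.9 CPM, the delEx44 libraries 48, 47.5 and 40.4 CPM and the corrected libraries 23.2, 16.2 and 13.3 CPM. The lowest delEx44 library was above the highest WT library (log2 fold change 1.16 ± 0.30 SE, adjusted p = 0.00755). Mki67 encodes Ki-67, a coat protein of mitotic chromosomes widely used to mark dividing cells, and did not pass. Levels of Mki67 were 14.7, 26.4 and 43.9 CPM in WT, 52.8, 58.8 and 45.2 CPM in delEx44 and 32.3, 18 and 17.6 CPM in corrected muscle. Its delEx44 libraries all lay above its WT libraries, with WT replicate 3 the highest of WT (log2 fold change 0.88 ± 0.39 SE, adjusted p = 0.0854). Aurka stood at 9.95, 9.21 and 12.2 CPM in WT, 8.67, 9.76 and 9.23 CPM in delEx44 and 9.8, 11.3 and 7.95 CPM in corrected muscle. Aurka, the Aurora A kinase of spindle poles, overlapped between the groups (log2 fold change -0.18 ± 0.14 SE, adjusted p = 0.288), as did Rrm1 (log2 0.057) and Ccne2 (log2 0.14).

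**Figure D2:**
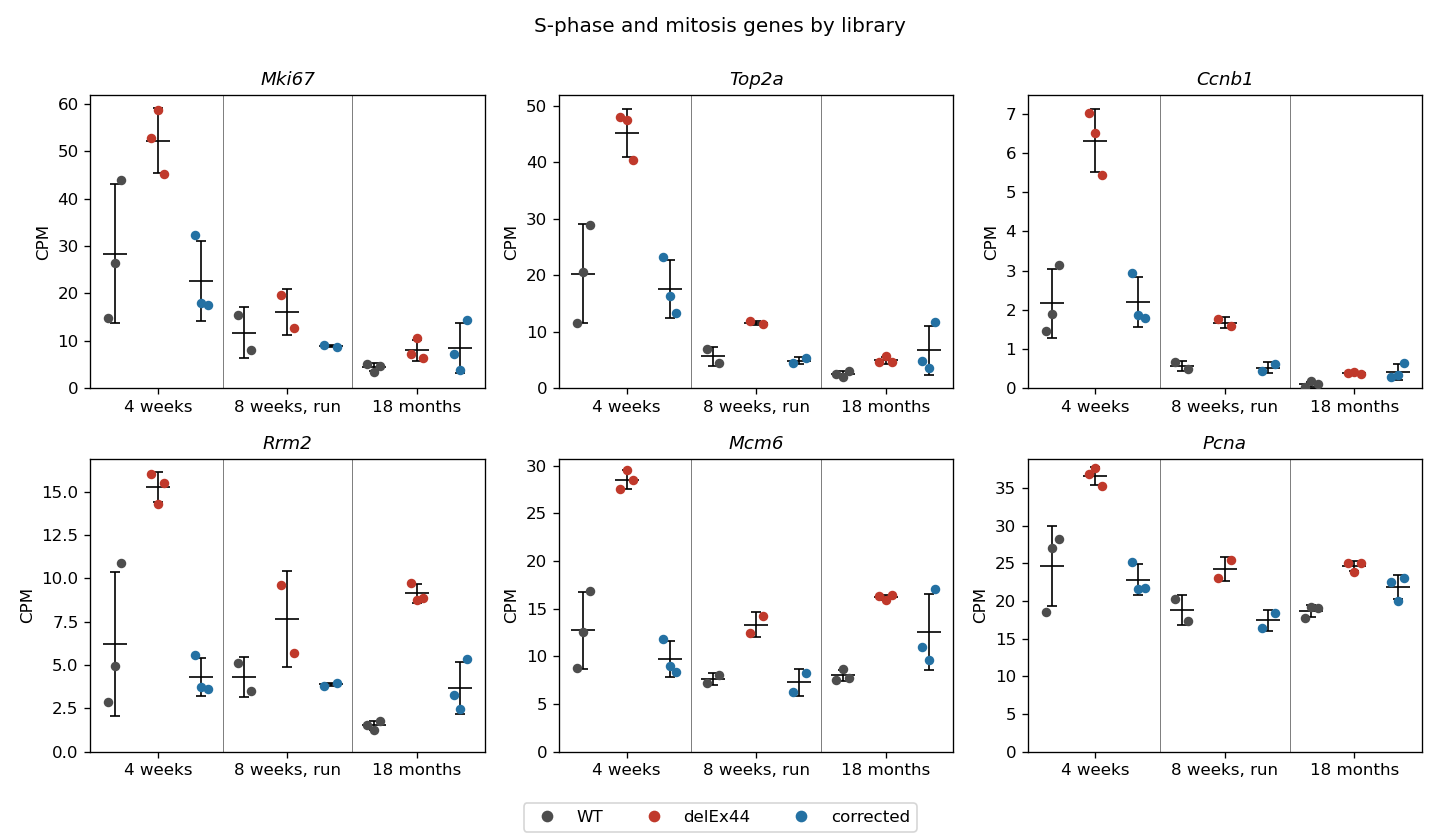
CPM of 6 S-phase and mitosis genes in every library (points) by stage and genotype, with the group mean (long bar) and SD (short bars); each axis starts at 0. The delEx44 points lie above the WT points in all 6 panels at 4 weeks, and at 18 months those of Rrm2 lie between 8.76 and 9.73 CPM against 1.26 to 1.75 CPM in WT.

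The call for 4 weeks did not rest on the WT library that stood apart: without WT replicate 3, 37 genes were called, and the lowest count over libraries left out was 29, without WT replicate 1. Birc5, Nusap1 and Mki67 were called higher without WT replicate 3. All 2 passenger complex genes, 6 spindle genes and 5 genes of chromosome structure then passed. Of the lists of other cell cycle genes, 37 of 41 other mitosis genes rose and 1 fell, 25 of 32 other replication genes rose and 2 fell, and 14 of 29 genes of cell cycle brakes and early G1 rose and 1 fell. Without WT replicate 3 the same lists gave 39 higher and 1 lower, 26 higher and 1 lower, and 12 higher and 1 lower. Among the mitosis genes Spc24 of the kinetochore (log2 1.33) and the tubulin gene Tubb5 (log2 0.86) led, and Pttg1, which encodes securin, was the gene that fell (log2 -0.49). The replication genes that led were Rfc5 (log2 1.17) of the clamp loader and the helicase gene Hells (log2 1.43), and Pola2 and Rpa2 fell (log2 -0.32 and -0.21). Cdk4 (log2 0.68) and Cdk6 (log2 2.03), the kinases of early G1, led the last list, and Rbl2, a pocket protein of the DREAM complex, fell (log2 -0.50).

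Markers of several cell types moved in the same libraries. Of 9 macrophage markers 8 rose, and they summed to 1185 to 1687 CPM in delEx44 against 233 to 287 CPM in WT; Cd163 was the one that did not pass. Of 7 satellite cell and myoblast markers 6 rose (351 to 742 against 64.8 to 88.3 CPM). Much of that sum was Myh3, the embryonic myosin of newly formed fibres, at 169 to 436 CPM in delEx44 against 2.59 to 3.56 CPM in WT. Pax7, which marks satellite cells themselves, did not pass, at 4.52 to 5.29 CPM in delEx44 and 3.99 to 6.39 CPM in WT (log2 fold change 0.026 ± 0.19 SE, adjusted p = 0.919). Of 7 fibroblast and progenitor markers 4 rose (8642 to 9649 against 6749 to 7506 CPM), and of 6 endothelial markers 0 passed. Of 8 muscle fibre markers 6 fell, from 186020 to 204504 CPM in WT to 89408 to 113683 CPM in delEx44. Without WT replicate 3, 8 macrophage, 5 satellite cell and myoblast, and 4 fibroblast markers rose and 8 fibre markers fell. Granulocyte markers were called lower in 5 of 8 cases with that library and higher in 3 of 8 without it. None of the 9 macrophage or 7 satellite cell markers was at 0 in any of these libraries. The part of each cell type in the rise of the cell cycle genes was not tested, and in bulk tissue a larger number of dividing cells and more RNA per cell cannot be told apart.

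The second comparison asked whether editing changed these genes in delEx44 muscle; it shares its 3 delEx44 libraries with the first. At 4 weeks 37 of the 40 genes were lower in corrected than in delEx44 muscle and 0 were higher, where 24.2% of 15013 genes were called lower and 22.1% higher. In 37 of the 40 genes every corrected library was below every delEx44 library, as in 30.4% of all genes. The median log2 fold change was -1.26 over the 40 genes and -0.0073 over all genes. Aurka, Rrm1 and Ccne2 did not pass (log2 0.071, -0.10 and -0.19). Mcm6 (log2 fold change -1.55 ± 0.20 SE, adjusted p = 9.22e-05), Mcm4 (log2 fold change -1.0 ± 0.15 SE, adjusted p = 1.84e-04) and Cdt1 (log2 fold change -1.82 ± 0.28 SE, adjusted p = 1.93e-04) had the smallest p. The libraries held 8.16, 8.38 and 12.7 CPM of Mcm4 in WT, 16.3, 16.9 and 17.2 CPM in delEx44 and 9.83, 8.25 and 6.99 CPM in corrected muscle. For Cdt1 the WT libraries read 1.23, 1.95 and 2.74 CPM, the delEx44 libraries 5.42, 5.59 and 5.83 CPM and the corrected libraries 2.21, 1.46 and 1.06 CPM. For both genes all 3 corrected libraries lay below all 3 delEx44 libraries. Mki67 (log2 fold change -1.2 ± 0.40 SE, adjusted p = 0.0297) passed in this comparison, and its call was lost without delEx44 replicate 1 or 2 or corrected replicate 2 or 3.

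The other cell cycle lists gave 39 of 41 mitosis genes lower and 1 higher, 27 of 32 replication genes lower and 1 higher, and 16 of 29 brakes and early G1 genes lower and 3 higher. Tubb5 (log2 -1.08), Spc24 (log2 -1.49), Hells (log2 -1.8), Cdk4 (log2 -0.77) and Dut (log2 -0.67), which keeps uracil out of DNA, were among the lower genes, and Pttg1 (log2 0.49) and Pola2 (log2 0.18) were the higher genes of their lists. Macrophage markers fell in 8 of 9 cases (376 to 493 CPM in corrected against 1185 to 1687 CPM in delEx44) and satellite cell markers in 4 of 7 (90.0 to 101 against 351 to 742 CPM), fibroblast and progenitor markers fell in 4 of 7 (6659 to 8411 against 8642 to 9649 CPM), and muscle fibre markers rose in 8 of 8 (163427 to 185788 against 89408 to 113683 CPM). Their part was not tested.

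Corrected and WT muscle were then compared at the same age. None of the 40 genes passed, and none of the 15013 genes tested passed either (0%). One member, Mcm2, had an unadjusted p under 0.05, and DESeq2 and limma-voom also called 0 members. The log2 fold changes of the members ran from -0.57 for Birc5 to 0.058 for Bub1b with a median of -0.18, which was 0.0932 without WT replicate 3 (0 genes called), and the libraries overlapped in all 40 genes, where those of 15.4% of all genes did not. For Mki67 the value was log2 fold change -0.32 ± 0.40 SE, adjusted p = 0.85. Of the macrophage markers 0 of 9 passed (376 to 493 CPM in corrected against 233 to 287 CPM in WT).

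**Figure D3:**
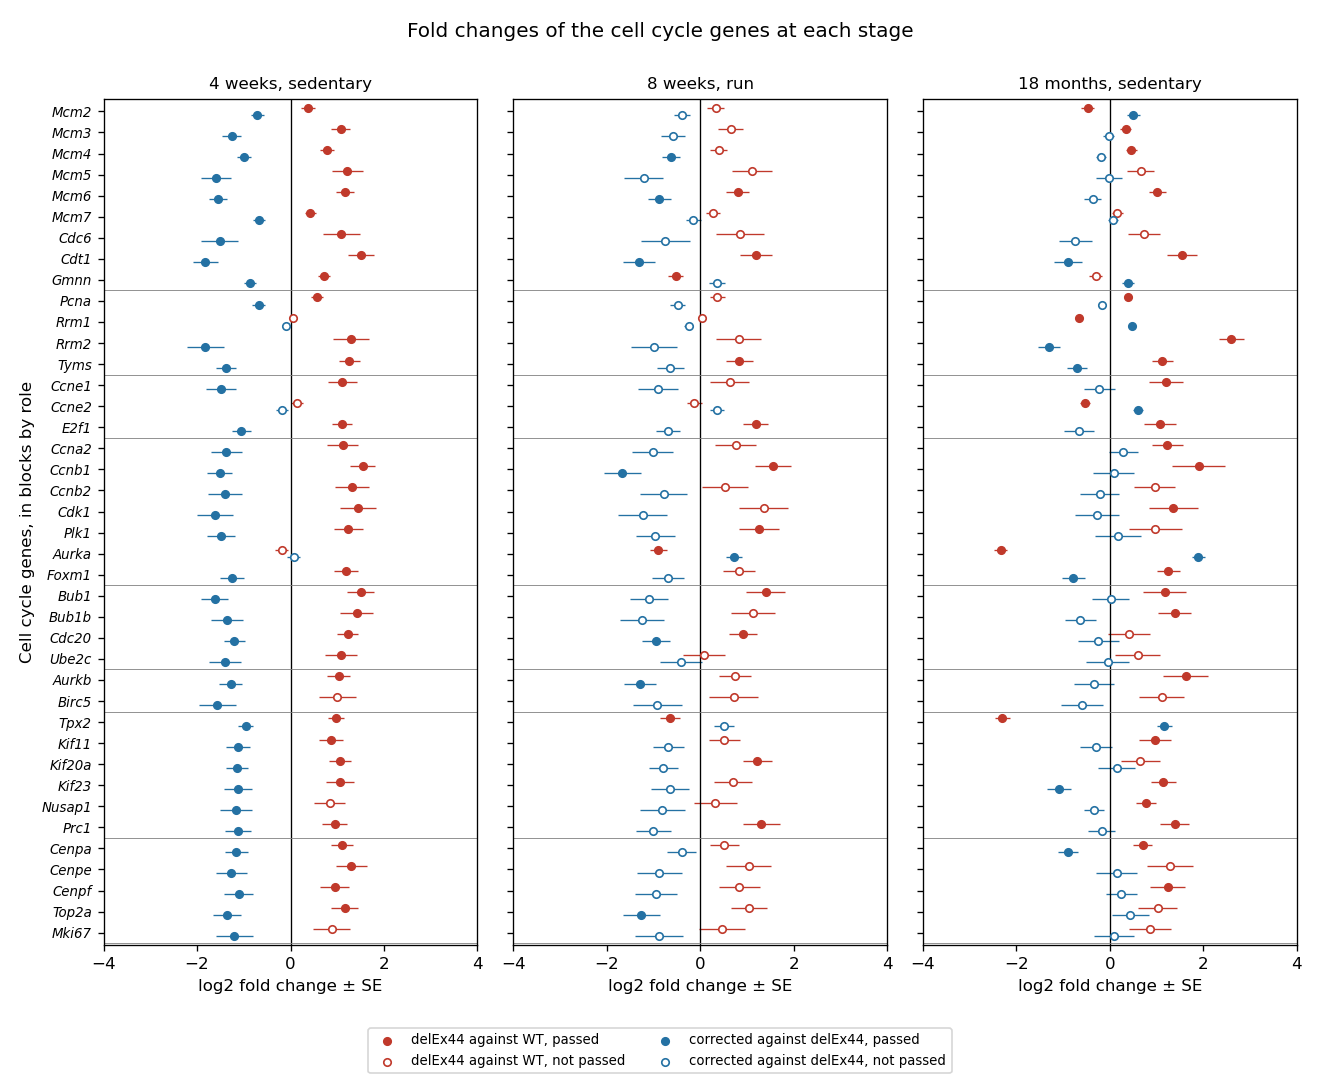
Log2 fold change (x axis, points with SE bars) of each of the 40 genes (y axis, in blocks by role) at the 3 stages; red, delEx44 against WT; blue, corrected against delEx44; filled points passed an adjusted p of 0.05. At 4 weeks most red points lie above 0 and most blue points below it, and at 18 months Aurka and Tpx2 lie at -2.33 and -2.3 in delEx44 while most others lie above 0.

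The step from sedentary muscle at 4 weeks to run muscle at 8 weeks was compared within each genotype. In WT 19 of the 40 genes fell and 1 rose, where 14.2% of 15013 genes fell and 13.4% rose. In delEx44 35 fell and 0 rose (19.3% and 16.4% of all genes), and in corrected muscle 16 fell and 1 rose (13.5% and 12.3%). The median log2 fold changes of the members were -1.09, -1.5 and -0.79 in the same order. Whether the delEx44 step differs from the WT step, and the corrected step from the delEx44 step, was tested through interactions. Whether the corrected and WT steps differ was not tested.

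Genes of mitosis led the fall. Kif20a went from 4.63, 6.86 and 7.94 CPM at 4 weeks to 1.66 and 1.52 CPM after running in WT, from 14.5, 14.5 and 11.5 CPM at 4 weeks to 4.35 and 3.1 CPM after running in delEx44 and from 8.02, 5.97 and 4.25 CPM at 4 weeks to 2.12 and 2.21 CPM after running in corrected muscle. Kif20a encodes a kinesin of cytokinesis, and it fell in WT (log2 fold change -2.02 ± 0.30 SE, adjusted p = 4.84e-04), in delEx44 (log2 fold change -1.85 ± 0.27 SE, adjusted p = 3.43e-04) and in corrected muscle (log2 fold change -1.5 ± 0.28 SE, adjusted p = 0.00268). Exons of Cdc23 cover 29.3% of its exon bases, and the strand setting of the counting is not given in the sources used here. Reads over the shared bases may thus have been left out as ambiguous or counted for the wrong gene. The same holds for Ube2c (22.8%, shared with Tnnc2) and Mcm7 (12.6%). Prc1 went from 5.95, 10.1 and 11.8 CPM at 4 weeks to 2.22 and 1.19 CPM after running in WT, from 18.2, 19.2 and 16 CPM at 4 weeks to 4.45 and 3.96 CPM after running in delEx44 and from 10.8, 7.46 and 6.17 CPM at 4 weeks to 1.6 and 2.6 CPM after running in corrected muscle. Prc1, which bundles the microtubules of the central spindle, fell in WT (log2 -2.45), delEx44 (log2 -2.08) and corrected muscle (log2 -1.95), and exons of Rccd1 cover 11.1% of its bases. Cdc20 went from 2.46, 3.79 and 4.19 CPM at 4 weeks to 1.63 and 1.04 CPM after running in WT, from 6.91, 9.1 and 8.45 CPM at 4 weeks to 2.85 and 2.21 CPM after running in delEx44 and from 4.45, 3.35 and 2.8 CPM at 4 weeks to 1.26 and 1.37 CPM after running in corrected muscle. Cdc20 activates the anaphase promoting complex, and its log2 fold changes were -1.38 in WT, -1.69 in delEx44 and -1.43 in corrected muscle. In all 3 genes every run library lay below every 4-week library of its genotype.

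Ccnb1 fell in each genotype (log2 -1.93, -1.92 and -2.06). Of the 9 licensing genes 1 fell in WT, 6 in delEx44 and 0 in corrected muscle. Of the 4 genes of DNA synthesis 1, 2 and 1 fell in the same order, and of the 3 G1/S drivers 1, 3 and 0. Gmnn was the gene that rose. Gmnn went from 3.24, 4.01 and 4.58 CPM at 4 weeks to 6.85 and 6.15 CPM after running in WT, from 6.16, 6.36 and 6.91 CPM at 4 weeks to 5.01 and 4.07 CPM after running in delEx44 and from 3.56, 3.29 and 3.83 CPM at 4 weeks to 5.74 and 5.92 CPM after running in corrected muscle. Gmnn encodes geminin, which blocks new loading of the helicase, and it rose in WT (log2 fold change 0.72 ± 0.15 SE, adjusted p = 0.00334) and corrected muscle (log2 fold change 0.71 ± 0.15 SE, adjusted p = 0.00421) and fell in delEx44 (log2 fold change -0.51 ± 0.15 SE, adjusted p = 0.0168). Tpx2 fell in delEx44 (log2 fold change -1.76 ± 0.20 SE, adjusted p = 8.18e-05), and its values were -0.14 in WT and -0.30 in corrected muscle, which did not pass. Tpx2 went from 7.15, 9.71 and 12.1 CPM at 4 weeks to 8.66 and 8.92 CPM after running in WT, from 19.2, 19.8 and 18 CPM at 4 weeks to 5.85 and 5.34 CPM after running in delEx44 and from 11.9, 9.18 and 8.08 CPM at 4 weeks to 8.62 and 7.26 CPM after running in corrected muscle.

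Of the other mitosis genes 28 of 41 fell in WT, 40 in delEx44 and 26 in corrected muscle, and in each genotype Pttg1 alone of that list rose (log2 0.47, 0.40 and 0.37). Smc4 of condensin (log2 -0.92) and Ect2 (log2 -2.11), which starts the cleavage furrow, led in WT, and Cdkn1c, an inhibitor of cyclin-dependent kinases, led the brakes in all 3 genotypes (log2 -1.87, -1.34 and -1.53). Other replication genes fell in 11 of 32 cases in WT, 22 in delEx44 and 4 in corrected muscle. In WT without the 4-week replicate 3, 23 mitosis genes and 5 replication genes fell. Fibroblast and progenitor markers fell too, with 5 of 7 called in WT, 4 in delEx44 and 7 in corrected muscle (2642 to 2669 CPM in run WT against 6749 to 7506 CPM at 4 weeks), and granulocyte markers rose in 4 of 8 cases in delEx44, 2 in corrected and 0 in WT muscle. Without the 4-week WT replicate 3 the WT counts were 3 of 7 fibroblast markers lower and 8 of 8 granulocyte markers higher. In delEx44 macrophage markers fell in 7 of 9 cases (849 to 857 CPM after running against 1185 to 1687 CPM at 4 weeks), satellite cell and myoblast markers fell in 5 of 7 (141 to 183 against 351 to 742 CPM), and muscle fibre markers rose in 5 of 8 (128173 to 139211 against 89408 to 113683 CPM). In corrected muscle 4 of 9 macrophage and 3 of 7 satellite cell and myoblast markers fell. Their part in the fall was not tested.

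The WT count rested on few libraries: it was 6 without run WT replicate 2, 14 without WT replicate 3, 29 without WT replicate 1 of the 4-week group, and 10 in a fit of these 2 groups alone. In corrected muscle it was 6 without run replicate 1, 10 without run replicate 3 and 10 without 4-week replicate 1.

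After running, 10 of the 40 genes were higher and 3 lower in delEx44 than in WT muscle, where 14.9% and 14.2% of 15013 genes were called. The median log2 fold change was 0.75 over the members and -0.0119 over all genes. The genes that rose were E2f1, Ccnb1, Kif20a, Cdt1, Bub1, Prc1, Mcm6, Cdc20, Plk1 and Tyms. Levels of E2f1 were 2.19 and 1.35 CPM in WT, 3.35 and 4.73 CPM in delEx44 and 1.9 and 3.1 CPM in corrected muscle. E2f1, a transcription factor that turns on S-phase genes, had no overlap between WT and delEx44 (log2 fold change 1.19 ± 0.27 SE, adjusted p = 0.00604). Ccnb1 stood at 0.653 and 0.48 CPM in WT, 1.77 and 1.58 CPM in delEx44 and 0.43 and 0.614 CPM in corrected muscle. Both delEx44 libraries lay above both WT libraries (log2 fold change 1.56 ± 0.39 SE, adjusted p = 0.00938). The libraries held 1.66 and 1.52 CPM of Kif20a in WT, 4.35 and 3.1 CPM in delEx44 and 2.12 and 2.21 CPM in corrected muscle. Kif20a followed the same order (log2 fold change 1.23 ± 0.32 SE, adjusted p = 0.0119).

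The 3 genes that fell were Aurka, Gmnn and Tpx2. For Aurka the WT libraries read 9.97 and 12.1 CPM, the delEx44 libraries 5.59 and 6.31 CPM and the corrected libraries 9.11 and 10.4 CPM. Both delEx44 libraries of Aurka lay below both WT libraries (log2 fold change -0.89 ± 0.17 SE, adjusted p = 0.0023), and this call held in all 10 alternative analyses. Levels of Gmnn were 6.85 and 6.15 CPM in WT, 5.01 and 4.07 CPM in delEx44 and 5.74 and 5.92 CPM in corrected muscle. Gmnn was lower in both delEx44 libraries (log2 fold change -0.52 ± 0.16 SE, adjusted p = 0.029), a call lost without run WT replicate 1, WT replicate 2 or delEx44 replicate 2. Tpx2 stood at 8.66 and 8.92 CPM in WT, 5.85 and 5.34 CPM in delEx44 and 8.62 and 7.26 CPM in corrected muscle. Tpx2 was lower in both delEx44 libraries too (log2 fold change -0.65 ± 0.21 SE, adjusted p = 0.0375), and its call was lost without any 1 of the 4 libraries.

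Of the other proliferation genes, Mki67, Top2a and Pcna did not pass. The libraries held 15.5 and 7.93 CPM of Mki67 in WT, 19.6 and 12.7 CPM in delEx44 and 8.99 and 8.66 CPM in corrected muscle. Mki67 overlapped between WT and delEx44 (log2 fold change 0.47 ± 0.50 SE, adjusted p = 0.519). For Top2a the WT libraries read 6.82 and 4.4 CPM, the delEx44 libraries 11.8 and 11.3 CPM and the corrected libraries 4.39 and 5.28 CPM. Top2a did not overlap between those groups (log2 fold change 1.04 ± 0.39 SE, adjusted p = 0.0689). Levels of Pcna were 20.3 and 17.4 CPM in WT, 23.1 and 25.4 CPM in delEx44 and 16.5 and 18.4 CPM in corrected muscle. Mcm6 stood at 7.21 and 8.04 CPM in WT, 12.4 and 14.2 CPM in delEx44 and 6.26 and 8.27 CPM in corrected muscle. For Pcna the value was log2 fold change 0.37 ± 0.16 SE, adjusted p = 0.107, and Mcm6 passed (log2 fold change 0.80 ± 0.25 SE, adjusted p = 0.0317) with a call that was lost without any 1 of the 4 libraries.

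The count of 13 rested on single libraries: it was 1 without run WT replicate 2, 8 without WT replicate 1, 5 without delEx44 replicate 1 and 5 without delEx44 replicate 2. Of the other mitosis genes 13 of 41 rose and 1 fell, of the replication genes 6 of 32 rose and 1 fell, and of the brakes and early G1 genes 10 of 29 rose and 3 fell. Pttg1 fell (log2 -0.57) and Smc4 rose (log2 0.81), and Cdkn2a, which encodes an inhibitor of the G1 kinases, had the smallest p of its list (log2 4.94). Macrophage markers rose in 8 of 9 cases (849 to 857 against 219 to 228 CPM) and satellite cell and myoblast markers in 3 of 7 (141 to 183 against 63.8 to 80.9 CPM). Myh3 stood at 84.5 and 51 CPM in delEx44 against 2.7 and 2.71 CPM in WT. Pax7 stood at 3.74 and 4.96 against 3.17 and 3.64 CPM, and Myod1 at 20.9 and 31 against 45.3 and 26.7 CPM. Fibroblast and progenitor markers rose in 4 of 7 (4198 to 4841 against 2642 to 2669 CPM) and granulocyte markers in 0 of 8. Granulocyte markers summed to 63.8 and 208 CPM in the delEx44 libraries and to 132 and 192 CPM in those of WT. In each group replicate 1 had the higher sum and also more Mki67. The part of these markers was not tested.

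Corrected and delEx44 muscle after running, which share the delEx44 libraries with the comparison above, differed at 8 genes: 7 were lower in corrected muscle (12.4% of all genes) and 1 was higher (10.8%). The lower genes were Ccnb1 (log2 fold change -1.67 ± 0.39 SE, adjusted p = 0.0092), Cdt1 (log2 fold change -1.31 ± 0.35 SE, adjusted p = 0.0165), Aurkb (log2 fold change -1.29 ± 0.35 SE, adjusted p = 0.0188), Mcm6, Mcm4, Cdc20 and Top2a, and Aurka was the higher one (log2 fold change 0.72 ± 0.17 SE, adjusted p = 0.0108), a call lost without delEx44 replicate 1 or corrected replicate 3. The libraries held 1.81 and 1.27 CPM of Cdt1 in WT, 3.27 and 3.76 CPM in delEx44 and 1.23 and 1.59 CPM in corrected muscle. For Aurkb the WT libraries read 1.33 and 1.04 CPM, the delEx44 libraries 2.13 and 1.85 CPM and the corrected libraries 0.706 and 0.921 CPM. For Cdt1 and for Aurkb, the kinase of the chromosomal passenger complex, both corrected libraries lay below both delEx44 libraries. The count was 2 and 3 without delEx44 replicates 1 and 2, 1 without corrected replicate 1 and 5 without corrected replicate 3. In corrected muscle macrophage markers were lower in 8 of 9 cases (236 to 315 against 849 to 857 CPM), satellite cell and myoblast markers in 3 of 7 (70.2 to 93.3 against 141 to 183 CPM) and fibroblast and progenitor markers in 4 of 7 (2611 to 3272 against 4198 to 4841 CPM), and their part was not tested. Against WT, corrected run muscle differed at 0 of the 40 genes, with 0.02% of all genes called; 1 member, Rrm1, had an unadjusted p under 0.05, and DESeq2 and limma-voom called 0.

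At 18 months the called genes went in both directions. In delEx44 muscle 22 were higher and 5 lower than in WT, where 28.8% of 14337 genes were called higher and 23.8% lower. Libraries did not overlap in 30 genes with delEx44 higher and in 5 with delEx44 lower, as in 36.3% and 29.8% of all genes. The median log2 fold change was 0.97 over the members and 0.0478 over all genes. The 5 lower genes were Aurka, Tpx2, Rrm1, Ccne2 and Mcm2. Those that rose were Rrm2, Mcm6, Pcna, Tyms, Foxm1, Cdt1, Prc1, Kif23, Mcm4, Bub1b, Ccna2, Nusap1, Ccnb1, Cenpa, Cenpf, Aurkb, Ccne1, E2f1, Kif11, Mcm3, Cdk1 and Bub1, and the other 13 did not pass.

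Aurka and Tpx2 had the smallest p of the members in either direction. Levels of Aurka were 10.1, 11.3 and 9.23 CPM in WT, 1.89, 2.14 and 2.06 CPM in delEx44 and 8.69, 6.76 and 7.17 CPM in corrected muscle. The highest delEx44 library was far below the lowest WT library (log2 fold change -2.33 ± 0.14 SE, adjusted p = 3.75e-06). Tpx2 stood at 15.5, 14.2 and 17 CPM in WT, 2.6, 3.42 and 3.46 CPM in delEx44 and 6.29, 8.64 and 6.35 CPM in corrected muscle. Tpx2 encodes the partner that holds Aurora A on the spindle, and it fell too (log2 fold change -2.3 ± 0.16 SE, adjusted p = 6.73e-06). Both genes lie on chromosome 2 (GRCm38), Aurka at chr2:172356190-172370535 on the minus strand and Tpx2 at chr2:152847964-152895321 on the plus strand, and neither shares exon bases with another annotated gene. Both calls held in all 12 alternative analyses.

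The 2 subunits of ribonucleotide reductase, which makes deoxynucleotides, moved in opposite directions. The libraries held 73.6, 74.3 and 77.8 CPM of Rrm1 in WT, 45.1, 48.5 and 49.1 CPM in delEx44 and 65.7, 66.4 and 65.4 CPM in corrected muscle. Rrm1, the large subunit, fell with no overlap between WT and delEx44 (log2 fold change -0.66 ± 0.057 SE, adjusted p = 1.94e-05). For Rrm2 the WT libraries read 1.52, 1.26 and 1.75 CPM, the delEx44 libraries 9.73, 8.76 and 8.88 CPM and the corrected libraries 3.28, 2.44 and 5.35 CPM. Rrm2, the small subunit known for its restriction to dividing cells, rose (log2 fold change 2.6 ± 0.26 SE, adjusted p = 4.48e-05) and had the largest rise of the 40 genes. Levels of Ccne2 were 13.1, 16 and 17.6 CPM in WT, 11.3, 9.81 and 11.3 CPM in delEx44 and 16.3, 16.7 and 16.2 CPM in corrected muscle. Ccne2, the cyclin E2 gene, fell (log2 fold change -0.52 ± 0.11 SE, adjusted p = 0.00304) while its relative Ccne1 rose (log2 fold change 1.2 ± 0.36 SE, adjusted p = 0.0182); exons of Ints8 cover 17.4% of the exon bases of Ccne2. Mcm2 stood at 9.73, 9.89 and 9.61 CPM in WT, 6.17, 8.57 and 6.45 CPM in delEx44 and 9.85, 9.0 and 11.2 CPM in corrected muscle. Mcm2 fell (log2 fold change -0.47 ± 0.14 SE, adjusted p = 0.0165), whereas its partners in the same helicase had values from 0.16 for Mcm7 to 1.02 for Mcm6. The TMM factors that scale library sizes were 0.898 to 0.964 in WT and 1.12 to 1.18 in delEx44 libraries at 18 months. Small falls such as those of Mcm2 and Ccne2 depend in part on this scaling, and no alternative analysis went without scaling.

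Among the genes that rose, Mcm6 and Pcna followed Rrm2 in p. The libraries held 7.53, 8.67 and 7.77 CPM of Mcm6 in WT, 16.3, 15.9 and 16.4 CPM in delEx44 and 10.9, 9.64 and 17.1 CPM in corrected muscle. For Pcna the WT libraries read 17.8, 19.2 and 19 CPM, the delEx44 libraries 25.1, 23.9 and 25 CPM and the corrected libraries 22.6, 20 and 23 CPM. In both genes every delEx44 library was above every WT library (log2 fold change 1.02 ± 0.18 SE, adjusted p = 0.0013 and log2 fold change 0.40 ± 0.075 SE, adjusted p = 0.00145). Levels of Ccnb1 were 0.0362, 0.166 and 0.0947 CPM in WT, 0.389, 0.416 and 0.366 CPM in delEx44 and 0.27, 0.32 and 0.642 CPM in corrected muscle. Ccnb1 also rose (log2 fold change 1.9 ± 0.56 SE, adjusted p = 0.0162), from very few reads: its WT libraries held 1, 5 and 2 counts and its delEx44 libraries 13, 13 and 11. Mki67 stood at 4.99, 3.42 and 4.74 CPM in WT, 7.1, 10.5 and 6.32 CPM in delEx44 and 7.18, 3.88 and 14.3 CPM in corrected muscle. The libraries held 2.39, 1.89 and 3.08 CPM of Top2a in WT, 4.52, 5.66 and 4.66 CPM in delEx44 and 4.87, 3.52 and 11.6 CPM in corrected muscle. Mki67 and Top2a did not pass, although their delEx44 libraries lay above those of WT (log2 fold change 0.87 ± 0.45 SE, adjusted p = 0.137 and log2 fold change 1.02 ± 0.43 SE, adjusted p = 0.0721).

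**Figure D4:**
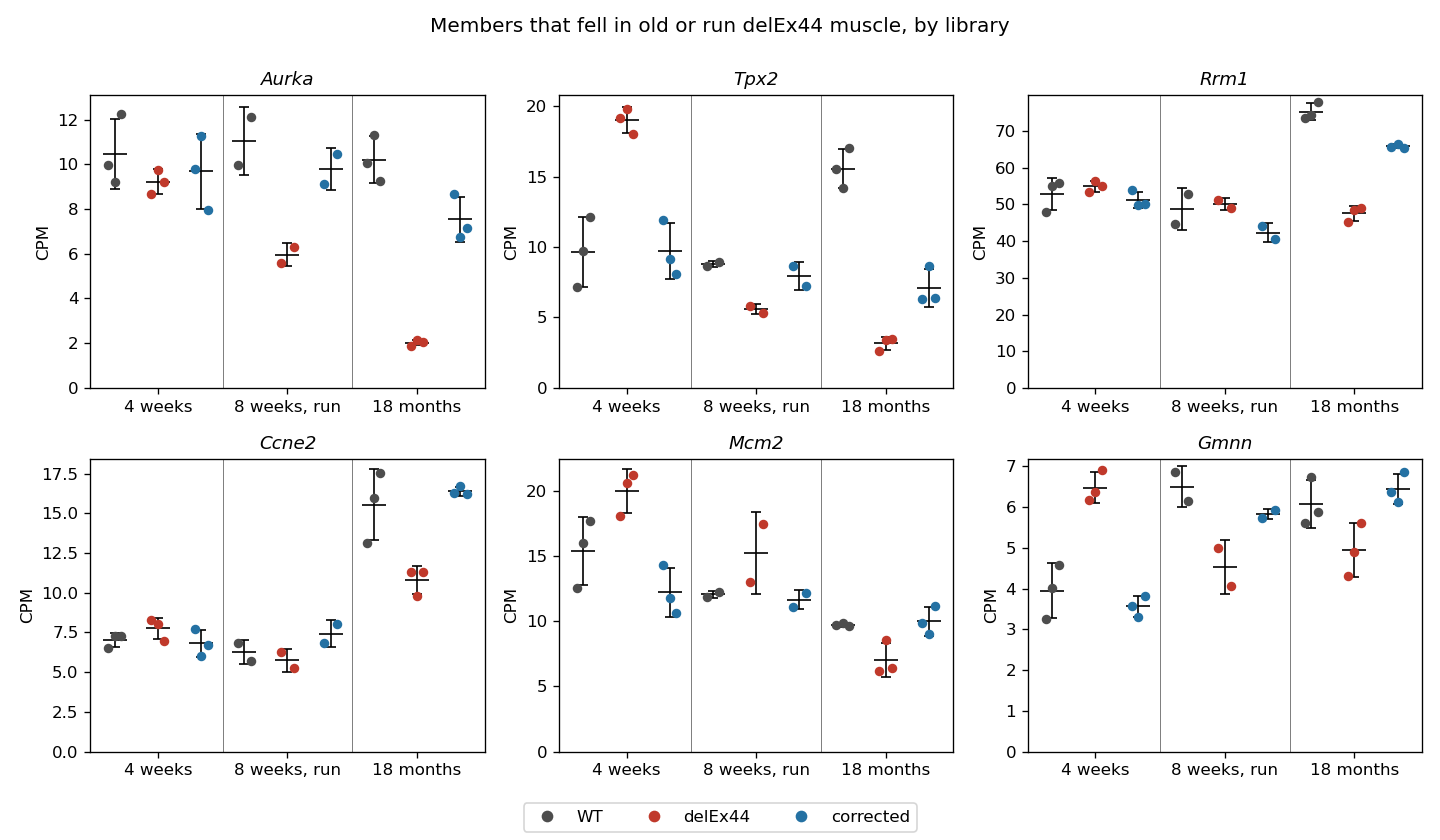
CPM of the 6 genes that fell in delEx44 muscle at 18 months or after running, in every library (points), with group mean (long bar) and SD (short bars); each axis starts at 0. Aurka lies at 1.89 to 2.14 CPM in delEx44 at 18 months against 9.23 to 11.3 CPM in WT, and at 4 weeks its 3 genotypes overlap.

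In WT muscle several of these genes were among the most abundant members per length. At 18 months the WT levels in CPM per kb of exon were 7.78 ± 0.331 for Pcna, 6.83 ± 0.207 for Rrm1, 4.45 ± 0.643 for Ccne2, 4.15 ± 0.404 for Gmnn, 4.03 ± 0.416 for Aurka and 3.33 ± 0.302 for Tpx2 (SD, n = 3), and 0.0235 ± 0.0154 for Ccnb1, the lowest. In that order Ccne2, Gmnn and Aurka are neighbours whose SDs overlap. The order was another in delEx44 muscle, where Aurka stood at 0.802 ± 0.0517 and Tpx2 at 0.676 ± 0.103 CPM per kb, ranks 11 and 14 of the 40, and Mcm4 and Mcm6 held ranks 3 and 4. The 6 genes that were called lower in delEx44 muscle at any stage (the 5 named above and Gmnn) summed to 128, 132 and 137 CPM in WT, 71.4, 77.3 and 78.0 CPM in delEx44 and 113, 114 and 113 CPM in corrected muscle at 18 months. The other 34 genes summed to 80.9, 76.9 and 80.5 CPM in WT, 136, 137 and 134 CPM in delEx44 and 108, 86.6 and 152 CPM in corrected muscle. All 40 together came to 212 ± 5.01 CPM in WT and 211 ± 3.66 CPM in delEx44 (SD, n = 3). The 6 genes were picked after their values were seen, and these sums are a description only. They made up 62.5% of the members' summed CPM in WT and 35.8% in delEx44 at 18 months, and 29.1% and 19.3% at 4 weeks. Levels of the 2 ages come from separately scaled tables.

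Leaving out single libraries gave 18 to 22 called genes at 18 months, the lowest without the WT library of column WT-2. The call of Bub1 was lost in 10 of 11 alternative analyses that tested it, and those of Cdk1 and Mcm3 in 9 of 12 each. Of the other mitosis genes 14 of 35 tested rose and 1, Pttg1, fell (log2 -0.53), and of the replication genes 10 of 31 rose and 3 fell. Tubb5 (log2 1.0) and Smc4 (log2 0.67) led the first list and Pole2 (log2 1.73) and Dbf4 (log2 0.91) the second, in which Rpa2 (log2 -0.38) and Pola2 (log2 -0.47) fell. Of the brakes and early G1 genes 18 of 29 rose, led by the D-type cyclins Ccnd3 (log2 1.1) and Ccnd2 (log2 1.04), and 5 fell, led by Rbl2 (log2 -0.44) and E2f3 (log2 -0.65). Macrophage markers rose in 8 of 9 cases (698 to 780 against 220 to 296 CPM), satellite cell markers rose in 4 of 7 and fell in 1 (96.3 to 133 against 38.7 to 46.1 CPM), fibroblast and progenitor markers rose in 7 of 7 (3024 to 3709 against 1808 to 1965 CPM), and muscle fibre markers fell in 5 of 8 (57576 to 69561 against 122349 to 131302 CPM). Much of the satellite cell and myoblast sum was again Myh3, at 40.3 to 61.1 CPM in delEx44 against 5.68 to 7.96 CPM in WT. Pax7 stood at 1.4 to 2.17 CPM in delEx44 against 2.04 to 2.28 CPM in WT, and Cdh15 at 10.2 to 12.2 against 12.7 to 17.5 CPM. The part of all these markers in the rise of some genes and the fall of others was not tested.

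In corrected against delEx44 muscle at 18 months, which share the delEx44 libraries with the comparison before, 6 genes were higher and 6 lower, where 19.6% and 21.4% of 14337 genes were called. The median log2 fold change was -0.17 over the members and -0.0283 over all genes. The higher genes were Aurka (log2 fold change 1.89 ± 0.14 SE, adjusted p = 1.73e-05), Rrm1 (log2 fold change 0.47 ± 0.057 SE, adjusted p = 1.96e-04), Tpx2 (log2 fold change 1.17 ± 0.16 SE, adjusted p = 4.30e-04), Ccne2 (log2 0.60), Mcm2 (log2 0.51) and Gmnn (log2 0.39). In Aurka, Tpx2 and Rrm1 every corrected library lay above every delEx44 library. The lower genes were Rrm2 (log2 fold change -1.3 ± 0.24 SE, adjusted p = 0.00189), Cenpa (log2 fold change -0.89 ± 0.21 SE, adjusted p = 0.00715), Kif23 (log2 fold change -1.08 ± 0.26 SE, adjusted p = 0.00783), Tyms, Foxm1 and Cdt1.

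For Cenpa the WT libraries read 1.7, 1.86 and 1.56 CPM, the delEx44 libraries 2.13, 2.78 and 3.49 CPM and the corrected libraries 1.47, 1.4 and 1.64 CPM. Cenpa, the histone variant that marks centromeres, was lower in all 3 corrected than in all 3 delEx44 libraries. Levels of Kif23 were 1.56, 1.76 and 1.61 CPM in WT, 3.56, 4.28 and 3.09 CPM in delEx44 and 1.7, 1.04 and 2.39 CPM in corrected muscle. Kif23, a kinesin of the central spindle, did the same. The other 28 genes did not pass, and 1 corrected library stood high in some of them: corrected replicate 3 had 11.6 CPM of Top2a against 4.87 and 3.52 CPM in the other corrected libraries and 14.3 CPM of Mki67 against 7.18 and 3.88 CPM. Its macrophage markers summed to 778 CPM against 535 and 251 CPM, and their part in these levels was not tested. Without that library 19 genes were called, 14 of them lower and 5 higher, and without delEx44 replicate 1 the count was 7. Of the other mitosis genes 1 rose and 4 fell among 35, of the replication genes 3 rose and 4 fell among 31, and of the brakes and early G1 genes 6 rose and 13 fell among 29, with Ccnd3 (log2 -1.05) and Ccnd2 (log2 -1.25) first. Satellite cell and myoblast markers fell in 4 of 7 cases (54.5 to 65.6 against 96.3 to 133 CPM) and fibroblast and progenitor markers in 6 of 7 (1830 to 2322 against 3024 to 3709 CPM). Myh3 stood at 14.8 to 24.2 CPM in corrected against 40.3 to 61.1 CPM in delEx44 muscle, and Pax7 at 1.72 to 2.05 against 1.4 to 2.17 CPM. Muscle fibre markers rose in 5 of 8 and fell in 1. Macrophage markers summed to 251 to 778 CPM in corrected and 698 to 780 CPM in delEx44 muscle, ranges that overlap. The part of these markers in these differences was not tested.

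Corrected and WT muscle at 18 months differed at 4 of the 40 genes (2.34% of all genes were called higher and 2.43% lower). Rrm2 (log2 fold change 1.3 ± 0.27 SE, adjusted p = 0.0318), Ccna2 (log2 fold change 1.53 ± 0.33 SE, adjusted p = 0.0363) and Cenpf (log2 fold change 1.48 ± 0.37 SE, adjusted p = 0.049) were higher in corrected muscle and Tpx2 was lower (log2 fold change -1.13 ± 0.15 SE, adjusted p = 0.00979). Ccna2 stood at 1.12, 0.863 and 0.805 CPM in WT, 2.16, 2.24 and 2.23 CPM in delEx44 and 2.36, 1.56 and 4.17 CPM in corrected muscle. The libraries held 0.651, 0.697 and 0.616 CPM of Cenpf in WT, 1.65, 1.79 and 1.23 CPM in delEx44 and 1.43, 1.12 and 2.96 CPM in corrected muscle. Ccna2 encodes cyclin A2 and Cenpf a kinetochore protein. In both the corrected libraries lay above those of WT, with replicate 3 the highest. Macrophage markers summed to 251 to 778 CPM in corrected against 220 to 296 CPM in WT muscle. Satellite cell and myoblast markers summed to 54.5 to 65.6 against 38.7 to 46.1 CPM. Fibroblast and progenitor markers summed to 1830 to 2322 against 1808 to 1965 CPM. The part of these markers was not tested. The value of Aurka was log2 fold change -0.44 ± 0.13 SE, adjusted p = 0.0745, which did not pass. These counts moved with single libraries: 15 genes were called without corrected replicate 2, 2 without replicate 3, 1 without corrected replicate 1, 1 without WT replicate 3, 1 without the WT library of column WT-1 and 0 without that of column WT-2. The call of Tpx2 was lost in 2 of 12 alternative analyses and that of Rrm2 in 6. Exons of Exosc9 cover 12.5% of the exon bases of Ccna2.

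Over the 3 stages, which share no library, 7 genes were higher in delEx44 than in WT muscle each time: Bub1, Ccnb1, Cdt1, E2f1, Mcm6, Prc1 and Tyms. Of all genes tested, 25.2% were called higher at 4 weeks, 14.9% after running and 28.8% at 18 months. The share of all genes called higher at all 3 stages was not counted. Whether 7 is more than that background was therefore not tested. Birc5 and Mki67 passed at no stage in the main fits, but both were called higher at 4 weeks without WT replicate 3. Tpx2 was called higher at 4 weeks and lower after running and at 18 months, Gmnn higher at 4 weeks and lower after running, and Mcm2 higher at 4 weeks and lower at 18 months. The 4-week call of Mcm2 was lost without WT replicate 1 or 2 or delEx44 replicate 2 or 3, and its 18-month call without the WT library of column WT-2 or delEx44 replicate 1 or 3. Aurka was called lower after running and at 18 months, and Rrm1 and Ccne2 at 18 months only.

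Interaction terms tested whether the genotype differences themselves changed. Between 4 weeks and 18 months the difference of delEx44 from WT became lower at 6 of the 40 genes and higher at 0, where 3.91% of 14937 genes became lower and 7.02% higher. They were Tpx2 (log2 change -3.29 ± 0.26 SE, adjusted p = 4.79e-06), Aurka (log2 change -2.17 ± 0.20 SE, adjusted p = 1.75e-05), Rrm1 (log2 change -0.74 ± 0.087 SE, adjusted p = 9.17e-05), Gmnn (log2 change -1.03 ± 0.19 SE, adjusted p = 0.00236), Mcm2 (log2 change -0.86 ± 0.20 SE, adjusted p = 0.0118) and Ccne2 (log2 change -0.69 ± 0.16 SE, adjusted p = 0.0121). All 6 calls held in every one of the 17 alternative analyses, and without the 4-week WT replicate 3 the count was 8. For Mki67 the change was -0.030 and for Ccnb1 0.34, neither of which passed. Age and table cannot be told apart in these terms. Those of Aurka and Tpx2 use the 18-month values for which the rule named both genes, so they are a description.

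The difference of corrected from delEx44 muscle became higher at 17 genes and lower at 0 over the same span (7.75% and 8.12% of all genes), led by Aurka (log2 change 1.85 ± 0.20 SE, adjusted p = 6.45e-05), Tpx2 (log2 change 2.16 ± 0.27 SE, adjusted p = 1.50e-04) and Rrm1 (log2 change 0.60 ± 0.087 SE, adjusted p = 4.62e-04). The other 14 were Gmnn, Mcm2 to Mcm7, Ccne2, Pcna, Ccna2, Top2a, Bub1, Ccnb1 and Cenpf. Of the 17, 10 were called in every alternative analysis, and the count was 10 without corrected replicate 2, corrected replicate 3 or delEx44 replicate 1 of the 4-week groups, 11 without 4-week delEx44 replicate 2, 10 without delEx44 replicate 1 or corrected replicate 3 at 18 months, and 11 without 18-month delEx44 replicates 2 or 3. Of the other mitosis genes 20 of 41 and of the other replication genes 14 of 32 also became higher. Age, table, vector dose and type of guide vector cannot be told apart in these terms.

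Between 4 weeks and the run groups the difference of delEx44 from WT became lower at Tpx2 (log2 change -1.63 ± 0.27 SE, adjusted p = 0.0275) and Gmnn (log2 change -1.23 ± 0.21 SE, adjusted p = 0.0275), 2 of 40 genes against 0.293% of all genes, and higher at 0 (0.586%). The difference of corrected from delEx44 became higher at 2 genes, Gmnn (log2 change 1.22 ± 0.21 SE, adjusted p = 0.0282) and Tpx2 (log2 change 1.47 ± 0.27 SE, adjusted p = 0.0299), against 0.406% of all genes, and lower at 0 (1.01%); the 2 contrasts share all their delEx44 libraries. Each count of 2 fell to 0 or 1 without single libraries: in the first contrast 0 without 4-week WT replicate 2, 4-week delEx44 replicate 1, run WT replicate 1 or run delEx44 replicate 2, and 1 without run WT replicate 2 or run delEx44 replicate 1, while it was 2 without the 4-week WT replicate 3. In the second it was 0 without 4-week delEx44 replicate 1, 4-week corrected replicates 2 or 3, run delEx44 replicate 2 or run corrected replicates 1 or 3, and 1 without 4-week corrected replicate 1 or run delEx44 replicate 1. Aurka had log2 change -0.71 ± 0.22 SE, adjusted p = 0.128 in the first of these contrasts and did not pass.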

How the data were processed

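RNA of flash-frozen quadriceps was sequenced as poly(A) libraries, 1 per sample, in 24 samples of 9 groups. The authors deposited raw read counts per gene in 2 tables, 15 libraries of the 4-week and run groups and 9 libraries at 18 months. The submitters' processing notes name HTSeq, edgeR and the build mm10, with Trim Galore for trimming, SAMtools 1.9, and as aligners STAR 2.7.2b and Bowtie2 2.3.4.3. For the aligner behind the counts, the annotation and the strand setting, details were not given in the sources used here. Reads assigned to no gene were 27.4 to 34.2% and 42.2 to 48.3% of the records in the 2 tables and were left out. At 18 months 2 WT columns could be matched only to their group and are called by their column names (WT-1, WT-2).

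Counts were tested with edgeR 4.0.16 (R 4.3.3; TMM scaling, filterByExpr, robust quasi-likelihood F-test, Benjamini-Hochberg adjustment over all genes tested, threshold 0.05), in 1 fit of the first table, 1 of the 18-month table and, for 18-month minus 4-week differences only, 1 of the 18 sedentary libraries. The SE of a log2 fold change is its size divided by the square root of F. CPM were computed within each table, and a pseudocount of 0.5 was used only for the heatmap. TMM factors were highest in delEx44 libraries at each stage. At 4 weeks they were 0.872 to 0.916 in WT, 1.13 to 1.24 in delEx44 and 0.911 to 0.976 in corrected libraries. After running they were 0.944 to 0.982, 1.05 to 1.06 and 0.945 to 1.01, and at 18 months 0.898 to 0.964, 1.12 to 1.18 and 0.923 to 0.980. Counts over 14337 to 15013 tested genes form the background. Alternatives were DESeq2 1.42.0, limma-voom 3.58.1, RLE and upper quartile scaling, no filter, the 2 groups alone, each library left out and, at 18 months, a replicate block. The script was tested on simulated data. The labels do not say that samples of a group are separate litters or batches, so p-values measure the spread between these samples. No pair of replicates held the same values or counts within sampling noise.

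The members and lists, and the remark in their rule that Aurka and Tpx2 go against the others at 18 months, were chosen with earlier results of these data known. Values by library are given for the 3 members with the smallest p among those that passed in each direction, and for Mki67, Top2a, Ccnb1, Pcna, Mcm6, Aurka and Tpx2 at each stage. Members that passed against the direction of most are all named. From each other cell cycle list at most 2 genes per direction were named, those with the smallest p. Promoters came from RefSeq and exon overlaps from the GENCODE annotation of GRCm38.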

Additional observations from a re-analysis of the deposited data

Results flagged for a closer look

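An effect of genotype that differed between stages by an interaction test (edgeR quasi-likelihood, adjusted p under 0.05 over all genes) was found 27 times among the 40 genes. All values are changes of a log2 fold change from the 4-week groups to the later ones. From 4 weeks to the run groups the difference of delEx44 from WT changed at Gmnn (-1.23) and Tpx2 (-1.63), and that of corrected from delEx44 at Gmnn (1.22) and Tpx2 (1.47). From 4 weeks to 18 months the difference of delEx44 from WT changed at Mcm2 (-0.86), Gmnn (-1.03), Rrm1 (-0.74), Ccne2 (-0.69), Aurka (-2.17) and Tpx2 (-3.29). Over the same span that of corrected from delEx44 changed at Mcm2 (1.24), Mcm3 (1.27), Mcm4 (0.85), Mcm5 (1.61), Mcm6 (1.22), Mcm7 (0.78), Gmnn (1.28), Pcna (0.54), Rrm1 (0.60), Ccne2 (0.82), Ccna2 (1.7), Ccnb1 (1.64), Aurka (1.85), Bub1 (1.68), Tpx2 (2.16), Cenpf (1.39) and Top2a (1.84).

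The first 2 contrasts share the delEx44 libraries of 4 weeks and of the run groups, and the others those of 4 weeks and 18 months. In the 18-month changes age and table come together, and for corrected muscle also vector dose and type of guide vector. Groups of 2 or 3 libraries are too small to test a single library as an outlier.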

How the results depend on the processing

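Of 234 calls over the 16 comparisons, 131 were kept under every alternative run, 103 were lost in at least 1, and 0 changed direction. Leaving out single libraries gave 29 to 37 called members for delEx44 against WT at 4 weeks, 34 to 37 for corrected against delEx44 and 0 to 0 for corrected against WT. After running the same 3 comparisons gave 1 to 8, 1 to 5 and 0 to 0, and at 18 months 18 to 22, 7 to 19 and 0 to 15. The run groups against 4 weeks gave 6 to 29 in WT, 24 to 33 in delEx44 and 6 to 18 in corrected muscle. The run interactions gave 0 to 2 in both contrasts, and the 18-month interactions 6 to 8 for delEx44 against WT and 10 to 22 for corrected against delEx44. Where a group was left with 1 library, it was assumed to vary like the others.

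With limma-voom, 8 members were called for delEx44 against WT after running, 5 for corrected against delEx44 after running and 1 for corrected against WT at 18 months. With DESeq2 the last 2 gave 14 and 9. A fit of the 2 groups alone called 0 for corrected against WT at 18 months and 10 for run against sedentary WT muscle. Without the filter on low counts, 11 were called for corrected against delEx44 between 18 months and 4 weeks. The cause of these moves was not tested. With a replicate block at 18 months, 7 members were called for corrected against delEx44 (4 higher, 3 lower). Deviations of same-numbered libraries correlated at -0.031, 0.025 and -0.049, and those of differently numbered libraries at -0.065 to 0.105. No pairing by number was seen, but so few libraries cannot exclude a weak one. No paired analysis was possible for the other comparisons because only 1 of the 3 WT columns at 18 months carries a usable number and the labels of the younger groups do not pair them. At 18 months some mitotic genes had few reads: Ccnb1 had 1 to 5 in WT libraries and Plk1 2 to 8. Counts of the other lists without the 4-week WT replicate 3 were added after seeing the data.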
